A study of Mus musculus with 24 samples.

Results

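Cytosolic ribosomal protein genes encode the protein part of the ribosome that reads nuclear mRNAs in the cytosol. They were taken from the deposited gene table by name, as Rpl or Rps followed by a digit, plus Rpsa, Rplp0, Rplp1 and Rplp2, with rows named as pseudogenes (-ps) and the S6 kinases (Rps6k) left out. The rule found 85 of 16821 genes, of which 51 carry names of the large subunit (Rpl) and 34 names of the small subunit (Rps), and all 85 had counts high enough to be tested. It also took in a pair that its names describe only loosely, Rps19bp1, which encodes a nucleolar protein that binds the Rps19 protein, and Rpl7l1, which encodes an Rpl7-like protein. No row of the table is named Rpl10l, and 4 rows without a deposited gene name that the annotation calls Rps3a3, Rps4l, Rpl37rt and Rpl6l are outside the rule.

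The tissue was inguinal fat (IWAT, a white depot under the skin), taken from male mice of the strain that the labels write C57BL6/J. Each of the 4 diets had 6 sequenced mice, while 8 mice per group were housed. The elemental MR group (MR stands for methionine restriction) ate elemental amino acids with 0.17% methionine, and the elemental control group ate the same kind of diet with 0.86% methionine. The oxidized casein MR group ate casein whose methionine had been lost by oxidation and then restored to 0.17%, and the casein control group ate casein at 0.86% methionine. Diets started at 5 weeks of age and lasted 12 weeks, and the mice, 4 months old per the labels, were killed after a 4 h fast. Only a small piece of each frozen pad was extracted, per the labels' protocols. The casein comparison varies both the methionine level and the oxidation of the protein. The series' design text speaks of the hepatic transcriptome, while its title and the sample source name IWAT, and the fat marker genes below were high in every library.

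A ribosome holds a single copy of nearly every one of these proteins, and their mRNAs are counted among the most abundant in most cells. Their mRNAs typically begin with a C followed by a run of pyrimidines, the 5′ terminal oligopyrimidine (TOP) tract. Through this tract the amino-acid-sensing kinase complex mTORC1 controls their translation, which counts of mRNA do not measure. Resting lymphocytes are known to devote a large share of their mRNA to these genes, and a lymph node is embedded in the inguinal fat pad.

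Sequences around the annotated start of transcription are shown for the members whose levels differed most between libraries and for members that stood apart from the rest. Each has 15 bases before and 15 bases from the start, 5′ to 3′ on the strand of the gene, from RefSeq on GRCm38.p6. Capitals mark a C followed by at least 4 pyrimidines (C or T) that begins within 3 bases of the start, the letters that a TOP tract would have. Rps24, Rps27l and Rpl3l each have a further RefSeq start that is not shown and has no such run. Rps27, Rps27rt, Rps24, Rpl12 and Rps15a were among the members with the largest differences below, Rplp2 is a stalk protein with a smaller difference, and Rps27l, Rpl39l, Rpl3l and Rps19bp1 did not follow the other members.
Rps27, chr3:90213634-90213663, minus strand: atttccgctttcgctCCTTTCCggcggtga
Rps27rt, chr9:114982725-114982754, minus strand: agaacttatcccttgCTTTCCggcggtgac
Rps24, chr14:24490663-24490692, plus strand: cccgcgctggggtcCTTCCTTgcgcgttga
Rpl12, chr2:32961697-32961726, plus strand: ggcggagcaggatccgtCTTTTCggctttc
Rps15a, chr7:118116133-118116162, minus strand: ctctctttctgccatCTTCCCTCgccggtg
Rplp2, chr7:141447636-141447665, plus strand: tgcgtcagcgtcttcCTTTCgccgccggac
Rps27l, chr9:66946071-66946100, plus strand: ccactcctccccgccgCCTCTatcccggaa
Rpl39l, chr16:10170213-10170242, plus strand: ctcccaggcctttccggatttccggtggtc
Rpl3l, chr17:24727811-24727840, plus strand: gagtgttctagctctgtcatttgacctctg
Rps19bp1, chr15:80264292-80264321, minus strand: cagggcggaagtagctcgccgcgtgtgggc

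RefSeq promoter entries were matched for 65 of the 85 members. A gene with several annotated starts counted as a match where any of them matched. A pyrimidine run of this kind began exactly at the annotated start in 14 of them (21.5%), against 2.96% of the 26960 other genes, and within 3 bases of it in 26 (40%), against 13.4% of the other genes. The motif CCGGAAG, searched on both strands of the window from 250 bases before to 50 after the start, was present in 26 members (40%) and in 9.86% of the other genes. These matches are descriptions of letters in a window, and an annotated start may lie a few bases away from the start used in fat.

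The counts came from QuantSeq libraries, which sample each mRNA near its poly(A) tail, so that a count does not scale with the length of the mRNA. Library totals ran from 7468336 to 19868913 counts, and levels are given as CPM, the count of a gene relative to the total of its library after scaling by TMM, a normalisation that assumes most genes do not differ. Ribosomal protein genes took between 1.5% and 5.70% of the counts of a library. Among them Rps26, a protein of the mRNA exit channel, had the highest mean over the 24 libraries at 1458 CPM, followed by Rps14 at 1311 CPM, the stalk protein Rplp1 at 1308 CPM, Rps24 at 1064 CPM and Rps12 at 971 CPM. Those 5 genes made up 21.1% of all ribosomal protein counts. At the other end, Rpl10a averaged 17.2 CPM, Rps27rt 5.99 CPM, Rpl39l 5.00 CPM, Rpl24 4.79 CPM and Rpl3l 2.72 CPM. In all, 64 members averaged over 100 CPM and 4 averaged under 10 CPM.

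The mean CPM of Rps26 was 535 times that of Rpl3l, a paralog restricted to striated muscle, and core proteins of the ribosome ranged from 1458 CPM (Rps26) to 4.79 CPM (Rpl24). Near-identical copies of these genes are numerous in the mouse genome. The share of 50-base words in the last 300 transcript bases that also occur in transcripts of other genes had a median of 52% over the members, and ran from 0% to 100%. In the 20 members of highest mean CPM this share had a median of 41%, and 6 of them were at 50% or above. In the 20 of lowest mean CPM the median was 62.9%, and 13 were at 50% or above. Rpl24, a protein of the bridge between the subunits, was among the lowest at 4.79 CPM and shared 81.3% of its words, and Rps6, the substrate of the S6 kinases, averaged 17.6 CPM and shared 83.3%. The part of shared sequence in these levels was not tested, and the levels of members with many shared words are uncertain.

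**Figure D1:**
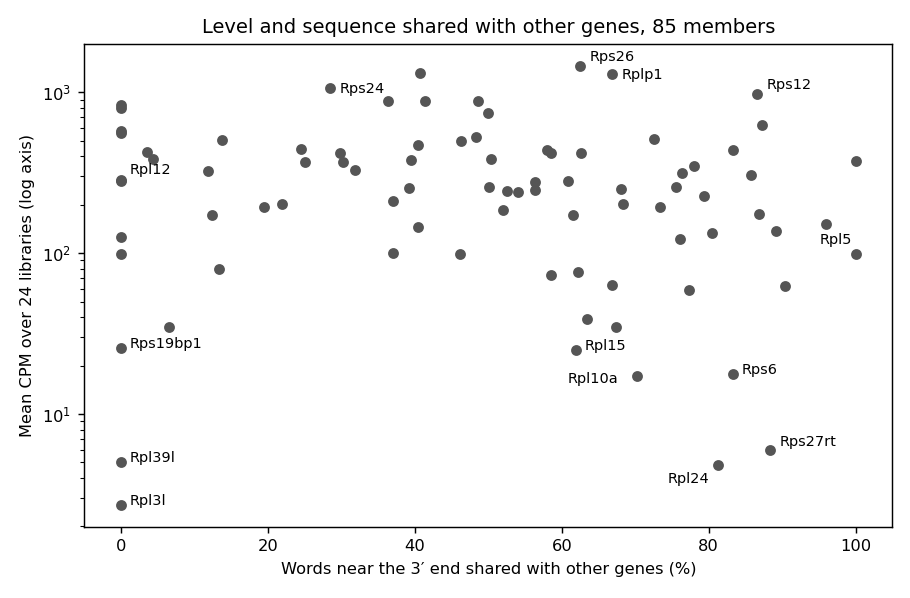
Mean CPM over the 24 libraries (vertical, log axis) against the percent of 50-base words near the 3′ end of the transcript that are shared with other genes (horizontal), 1 point for each of the 85 members. Low members lie both at the left edge, such as Rpl3l and Rpl39l at 0%, and at the right, such as Rpl24 at 81.3% and Rps27rt at 88.4%.

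No member passed the test for any diet comparison. With edgeR's quasi-likelihood test and Benjamini-Hochberg adjustment over 15176 genes, 0 of 85 members were called for elemental MR against elemental control, where 0.244% of all genes tested were called. The count for oxidized casein MR against casein control was also 0 of 85, and 3.82% of all genes. In the difference between these MR effects, 0 of 85 were called, and 0% of all genes. For casein control against elemental control the count was 0 of 85, and 0.659% of all genes. Between oxidized casein MR and elemental MR it was 0 of 85, and 0% of all genes. At an unadjusted p under 0.05 the counts of members were 0, 0, 1, 2 and 1 of 85 in the same order, all of them with negative values, beside 10.2%, 16.1%, 3.34%, 12.6% and 6.98% of all genes tested. DESeq2 and limma voom also called 0 members in each comparison. The groups of 6 overlapped in CPM for every member in the pairs formed by MR and control, by the controls and by the MR diets, while 0.824% of all genes did not overlap between elemental MR and elemental control, 2.69% between oxidized casein MR and casein control, 0.929% between casein control and elemental control, and 0.428% between oxidized casein MR and elemental MR.

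The values of most members nevertheless lay on a common side of zero within a comparison. For elemental MR against elemental control, 74 of 85 members had positive log2 fold changes, with a median of 0.04, against a median of -0.02 over all genes tested. On casein, oxidized casein MR against casein control, 79 of 85 were negative, with a median of -0.22, against -0.06 over all genes. The difference between the MR effects was negative for 82 members, with a median of -0.24, against 0.01 over all genes. For casein control against elemental control, 73 were positive, with a median of 0.10 and 0.02 over all genes. Oxidized casein MR against elemental MR gave negative values for 81, with a median of -0.18 and -0.03 over all genes. The SE of a single member had a median of 0.22 in the comparisons of 2 groups and 0.31 for the difference. The members vary together between libraries and are not independent of each other, and the medians were not tested. Single libraries turned the sign of a pair of these medians: without elemental control 2 the median for elemental MR was -0.0491, and without casein control 6 the median for casein control against elemental control was -0.0125. Leaving out 1 library at a time, the median for oxidized casein MR against casein control ran from -0.352 (without oxidized casein MR 3) to -0.11 (without casein control 6). The median of the difference ran from -0.376 (without oxidized casein MR 5) to -0.15 (without casein control 6), and that for the MR diets from -0.294 (without oxidized casein MR 5) to -0.0672 (without oxidized casein MR 1). With TMM computed without these genes, 64 of 85 members were positive for elemental MR. Comparisons that share a diet group also share its libraries.

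Rps27, a zinc-finger protein of the small subunit, gives an example of the overlap. It had 182, 504 and 578 CPM (lowest, median and highest of 6 mice) in elemental MR, against 199, 455 and 628 CPM in elemental control. In oxidized casein MR it had 184, 236 and 569 CPM, against 231, 495 and 702 CPM in casein control. Each group held both low and high mice, and the groups overlapped over most of their ranges. Rps26 had 922, 1105 and 1945 CPM in oxidized casein MR, against 1006, 1640 and 2134 CPM in casein control, again with wide overlap.

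The members with the smallest p-values in each direction are given as not passing. For elemental MR, these were Rpl7l1 at a log2 fold change of 0.17 (SE 0.11, edgeR adjusted p = 0.65), Rpl39l at 0.66 (SE 0.46) and Rpl36al at 0.21 (SE 0.18) on the positive side, and Rpl3l at -0.86 (SE 1.31), Rpl10 at -0.08 (SE 0.17) and Rpl39 at -0.05 (SE 0.20) on the negative side. Rpl7l1 had 31.2, 37.9 and 46.4 CPM in elemental MR (lowest, median, highest), against 27.1, 33.1 and 40.0 CPM in elemental control. The lower part of the first range lies within the second. The value of Rpl3l was decided by single libraries, at 1.94 without elemental control 2 and -3.92 without elemental MR 2.

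Rpl24 had the smallest p for oxidized casein MR against casein control. It had 2.79, 3.82 and 5.33 CPM in oxidized casein MR, against 3.70, 5.18 and 7.44 CPM in casein control, a log2 fold change of -0.40 (SE 0.19, edgeR adjusted p = 0.313). The highest mice of the oxidized casein MR group lay above the lowest of the casein controls. Rps4x, the X-linked gene of a small-subunit protein, was at -0.42 (SE 0.24) and Rpl37a, a zinc-finger protein of the large subunit, at -0.35 (SE 0.21). On the positive side were Rps19bp1 at 0.22 (SE 0.11, edgeR adjusted p = 0.341), Rps27l, a paralog of Rps27 that p53 induces, at 0.24 (SE 0.14), and Rpl39l at 0.54 (SE 0.46). Rps27l passed the test when casein control 5, its highest library at 106 CPM, was left out (0.41, edgeR adjusted p = 0.0445), in a fit that called 5.41% of all genes.

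Rpl24 also had the smallest p for the difference between the MR effects, at -0.61 (SE 0.27, unadjusted p = 0.0341, edgeR adjusted p = 0.909). It was positive in neither of the comparisons that use oxidized casein MR, with -0.41 (SE 0.19, edgeR adjusted p = 0.714) for oxidized casein MR against elemental MR, whose libraries the difference shares. Its counts were low, between 23 and 88 per library. The other members with the smallest p for the difference were Rpl7l1 at -0.23 and Rps4x at -0.44 on the negative side, and Rps19bp1 at 0.23, Rps27l at 0.21 and Rpl3l at 1.68 (SE 1.98) on the positive side.

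Between the control diets, Rps19bp1 had 19.0, 22.6 and 25.9 CPM in casein control, against 23.7, 28.2 and 30.2 CPM in elemental control. Its log2 fold change was -0.28 (SE 0.11, unadjusted p = 0.0226, edgeR adjusted p = 0.297), and the ranges overlapped between 23.7 and 25.9 CPM. Rps27l was at -0.28 (SE 0.14, edgeR adjusted p = 0.435), and among only those libraries that hold lymph node transcripts (described below) it passed the test at -0.53 (edgeR adjusted p = 0.0445), in a fit that called 1.13% of all genes, while among the libraries without them it was at 0.0923. Rpl3l was at -3.18 (SE 1.46, edgeR adjusted p = 0.369), and it was at -0.42 without elemental control 2. On the positive side were Rpl21 at 0.27 (SE 0.22), Rps12 at 0.22 (SE 0.19) and Rpl24 at 0.21 (SE 0.19). Between the MR diets, oxidized casein MR against elemental MR, Rps2 at -0.24 (SE 0.13) and Rpl7l1 at -0.19 (SE 0.11) followed Rpl24 on the negative side, while Rpl39l at 0.15 (SE 0.46), Rpl29 at 0.04 (SE 0.18) and Rps6 at 0.06 (SE 0.37) had the smallest p on the positive side.

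The libraries were unequal in lymphoid, muscle and hepatocyte transcripts. The summed level of 12 B cell markers was 398 to 1250 CPM in 15 libraries and 7.56 to 86.5 CPM in the other 9, and T cell markers were 268 to 695 CPM in the same 15, against 8.93 to 63.0 CPM in the 9. The libraries on the high side are called here libraries with lymph node transcripts. They made up 5 of 6 in elemental MR, 4 of 6 in elemental control, 2 of 6 in oxidized casein MR and 4 of 6 in casein control. White adipocyte markers summed to 20695 to 43416 CPM with lymph node transcripts and 32077 to 62889 CPM without, so fat was present in all 24. Skeletal muscle markers summed to 13.5 to 375 CPM with and 65.8 to 11638 CPM without, and the highest muscle values were in elemental MR 2 (5111 CPM) and elemental control 2 (11638 CPM). Hepatocyte markers summed to between 60.1 CPM (casein control 6) and 8435 CPM (elemental control 6), both libraries with lymph node transcripts. All 6 hepatocyte markers were lower in casein control than in elemental control at edgeR's unadjusted p under 0.05, beside 12.6% of all genes in either direction. None of them was called (smallest edgeR adjusted p = 0.21). In pieces of tissue, fewer cells of a type and less RNA per cell cannot be told apart.

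The share of counts in ribosomal protein genes differed with the lymph node transcripts. It was 3.47% ± 0.79 (SD, n = 15) in libraries with them, from 2.28% to 5.70%, and 2.07% ± 0.37 (SD, n = 9) in libraries without, from 1.5% to 2.57%. The ranges overlapped between 2.28% and 2.57%. Of the counts left after mitochondrially encoded genes, the shares were 3.53% to 6.78% with and 2.34% to 3.05% without, which did not overlap. By diet the share was 2.69% ± 0.70 in elemental MR and 2.86% ± 0.77 in elemental control, and 2.57% ± 0.96 in oxidized casein MR and 3.65% ± 1.15 in casein control (SD, n = 6 each). Mitochondrially encoded genes held 32.9% of counts in elemental MR and 26.2% in elemental control, and 27.9% in oxidized casein MR and 18.8% in casein control. Of the counts left after them, the ribosomal protein share was 4.00% ± 0.95 in elemental MR and 3.91% ± 1.2 in elemental control, the other way round from the share of all counts and by less than either SD, and 3.56% ± 1.3 in oxidized casein MR and 4.51% ± 1.4 in casein control (SD, n = 6 each). Among the 15 libraries with lymph node transcripts it averaged 2.91% (n = 5) in elemental MR and 3.28% (n = 4) in elemental control, and 3.77% (n = 2) in oxidized casein MR and 4.2% (n = 4) in casein control. Without mitochondrially encoded genes these were 4.32% in elemental MR and 4.58% in elemental control, and 5.25% in both casein groups. Among the 9 libraries without lymph node transcripts the share of all counts averaged 1.59% (n = 1) in elemental MR and 2.02% (n = 2) in elemental control, and 1.97% (n = 4) in oxidized casein MR and 2.56% (n = 2) in casein control. Without mitochondrially encoded genes these were 2.36%, 2.59%, 2.72% and 3.04% in the same order. The casein ranges did not overlap by either share. Of all counts they were 1.5% to 2.19% in oxidized casein MR and 2.54% to 2.57% in casein control. Without mitochondrially encoded genes they were 2.34% to 2.97% in oxidized casein MR and 3.02% to 3.05% in casein control. These gaps were not tested. The highest share, 5.70%, was in casein control 6, which also had the highest B cell markers at 1250 CPM.

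**Figure D2:**
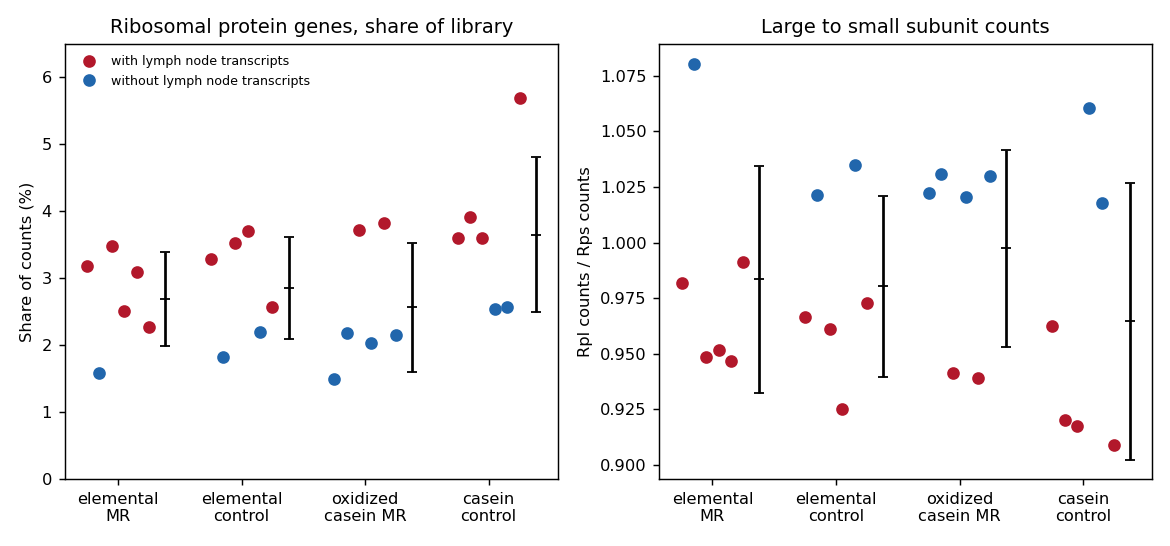
Share of each library's counts in the 85 ribosomal protein genes (left, percent) and ratio of Rpl to Rps counts (right; this axis does not start at 0) for the 6 libraries of each diet, red with and blue without lymph node transcripts, with the group mean and SD in black. The blue libraries, 1 in elemental MR, 2 in elemental control, 4 in oxidized casein MR and 2 in casein control, have low shares (1.5% to 2.57%) and high ratios (1.02 to 1.08).

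The balance of the subunits moved as well. The ratio of counts in Rpl-named to Rps-named members was 0.91 to 0.99 in the 15 libraries with lymph node transcripts and 1.02 to 1.08 in the 9 without, with no overlap. By diet it averaged 0.983 ± 0.051 in elemental MR and 0.980 ± 0.041 in elemental control, and 0.997 ± 0.044 in oxidized casein MR and 0.965 ± 0.062 in casein control (SD, n = 6 each). The ratio of counts is not a ratio of proteins.

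Adding the presence of lymph node transcripts to the fit changed the diet values of the members. The median log2 fold change for oxidized casein MR against casein control was -0.02 with this term, against -0.22 without it, and 36 of 85 members were positive in place of 6. The median for the difference between the MR effects was 0.04, against -0.24 without the term. For oxidized casein MR against elemental MR it was 0.14 against -0.18, for elemental MR against elemental control -0.06 against 0.04, and for casein control against elemental control 0.12 against 0.10. The median SE of a member was between 0.12 and 0.17 with the term. With the term, edgeR called 0 of 85 members in each comparison, while it called 1.09% of all genes for elemental MR, 7.38% for oxidized casein MR against casein control, 0% for the difference, 2.06% for the controls and 0% for the MR diets. At an unadjusted p under 0.05 the members counted 1, 0, 0, 5 and 8 of 85, beside 12.8%, 19.6%, 3.03%, 16.9% and 6.96% of all genes.

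Among the 15 libraries with lymph node transcripts, the median for oxidized casein MR against casein control was 0.08, with 76 of 85 members positive, and in the 9 without them it was -0.10, with 70 negative. Oxidized casein MR and casein control had 2 and 4 libraries with lymph node transcripts, and 4 and 2 without. For elemental MR against elemental control the medians were -0.05 in the libraries with and -0.07 in those without, where elemental MR has 1 library. The 8 members at an unadjusted p under 0.05 for the MR diets with the term were Rps19, Rps13, Rps24, Rpl21, Rps15, Rpl36a, Rpl13a and Rps26, all positive, with log2 fold changes from 0.24 (Rps15) to 0.36 (Rps24, SE 0.16) and a smallest edgeR adjusted p of 0.702. They were picked out after their values were seen.

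**Figure D3:**
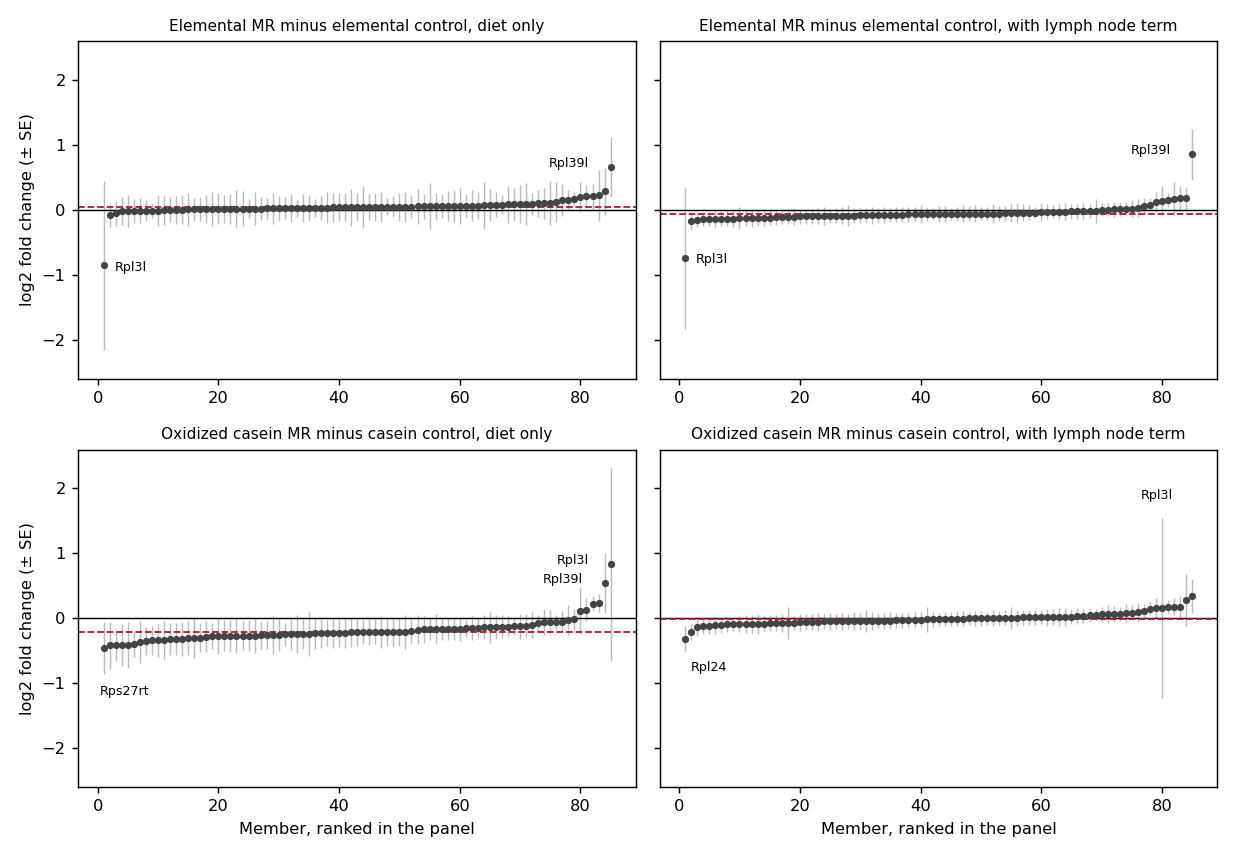
Log2 fold change (± SE) of each of the 85 members, ranked within its panel, for elemental MR minus elemental control (top) and oxidized casein MR minus casein control (bottom), fitted with diet only (left) and with a lymph node term (right), and the median as a dashed line. In the casein comparison the median lies at -0.22 with diet only and at -0.02 with the term, and the error bars are shorter in the right panels.

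The comparison of the libraries with and without lymph node transcripts, with diet in the fit, was chosen after the data were seen. In it, 77 of 85 members were higher with lymph node transcripts and 3 were lower, while 22.9% of all genes tested were higher and 22.9% lower. The median log2 difference was 0.71 over the members and -0.01 over all genes. In 35 members every library with lymph node transcripts lay above every library without, which 6.15% of all genes did. Small-subunit members had a median of 0.80, and 32 of 34 were higher, and large-subunit members had a median of 0.64, and 45 of 51 were higher. The diets were unequally divided by this split, and diet was in the fit. Of 6 adipose progenitor markers, 5 were lower and 1 higher with lymph node transcripts, and of 6 macrophage markers, 3 were lower and 1 higher. B cell, T cell, adipocyte and muscle markers also move together with the split. The separate parts of these cell types in the differences were not tested.

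Rps27 had the largest difference. It had 364, 545 and 702 CPM (lowest, median, highest) in the 15 libraries with lymph node transcripts, against 182, 231 and 256 CPM in the 9 without, with no overlap. Its log2 difference was 1.30 (SE 0.10, edgeR adjusted p = 1.02e-10). Rps27rt, a retrogene whose level is uncertain because 88.4% of its 3′ words occur in other genes, followed at 1.28 (SE 0.19). Rpl12, a protein at the base of the stalk, was at 1.26 (SE 0.11), with 263, 363 and 493 CPM with lymph node transcripts and 110, 166 and 191 CPM without. It shared no 3′ word with another gene.

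Rps24, which is mutated in some families with Diamond-Blackfan anemia in human, had 923, 1329 and 2035 CPM with lymph node transcripts and 427, 634 and 749 CPM without (log2 difference 1.21, SE 0.12). Rps15a was at 1.16, Rps16 at 1.15 and Rpl13a at 1.11, each with all libraries of the first kind above all of the second. Other members had differences of smaller size that also passed, among them the stalk proteins Rplp0 at 0.70, Rplp1 at 0.65 and Rplp2 at 0.47, and Rpsa, the laminin receptor protein of the small subunit, at 0.86 (SE 0.08). The lowest values among those that rose were Rpl41, the gene of the smallest ribosomal protein, at 0.29, Rpl22l1 at 0.30 and Rps2 at 0.40.

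**Figure D4:**
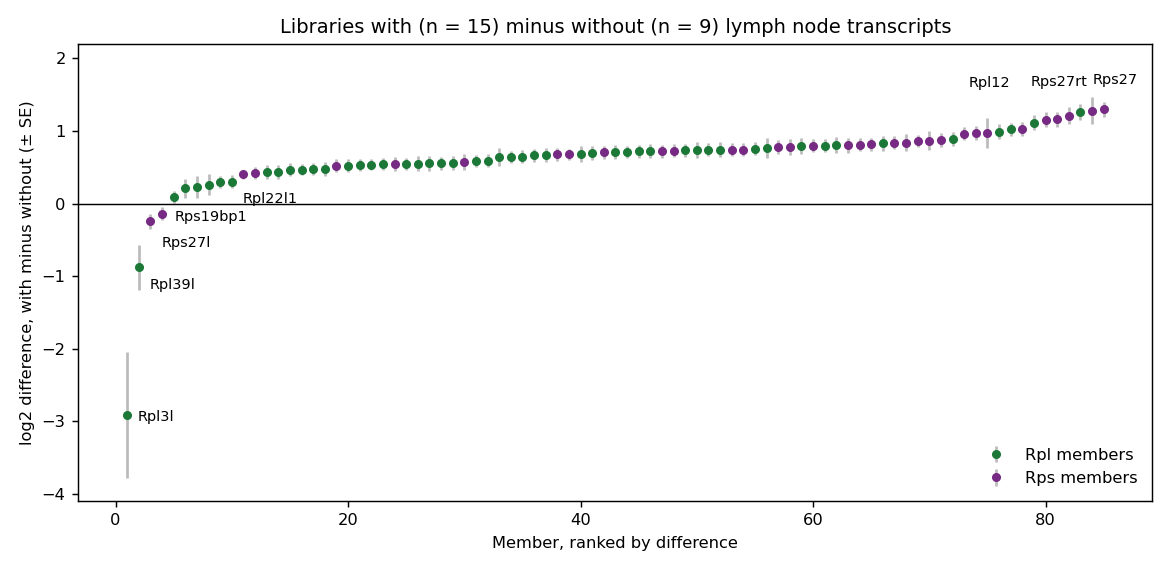
Log2 difference (± SE) between the 15 libraries with and the 9 without lymph node transcripts for each of the 85 members, ranked, with Rpl members in green and Rps members in purple. Rpl3l, Rpl39l, Rps27l and Rps19bp1 lie below zero, and Rps27 is at the top at 1.30.

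The members that did not follow the rest were mostly those with paralog names. Rpl3l, the striated-muscle paralog of the peptidyl transferase center protein Rpl3, was lower with lymph node transcripts, at -2.92 (SE 0.87, edgeR adjusted p = 0.00956). It had 0, 0.36 and 2.71 CPM with and 0.13, 1.21 and 30.7 CPM without, and the ranges overlapped. Its level rested on a pair of libraries, elemental MR 2 with 202 counts and elemental control 2 with 605 counts, which were also the libraries richest in the skeletal muscle actin Acta1, at 1239 CPM in elemental MR 2 and 2944 CPM in elemental control 2. Without both the difference was -0.20 (edgeR adjusted p = 0.886), and it was -2.04 without elemental MR 2 alone and -1.95 without elemental control 2 alone (edgeR adjusted p = 0.106 for each). Rpl3 itself was higher with lymph node transcripts, at 0.71 (SE 0.09), with 228, 305 and 376 CPM with and 154, 199 and 220 CPM without.

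**Figure D5:**
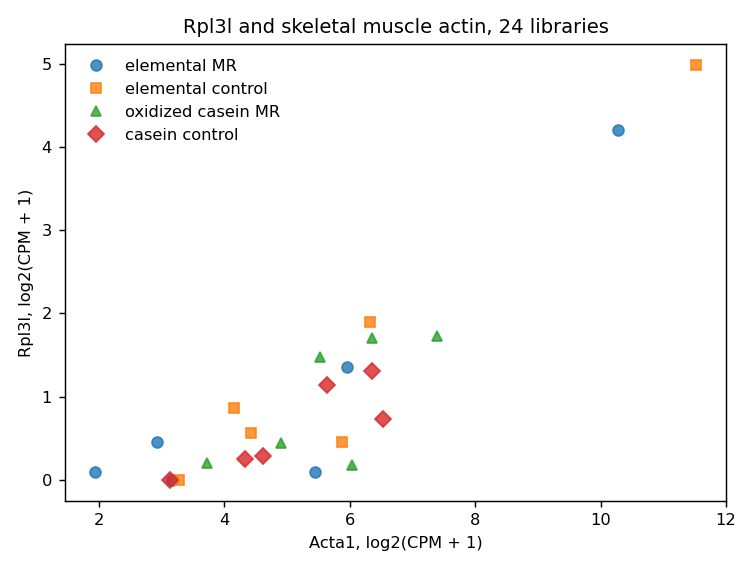
Rpl3l against the skeletal muscle actin gene Acta1, both as log2(CPM + 1), for the 24 libraries, with 1 symbol per diet. Elemental MR 2 (17.5 CPM of Rpl3l) and elemental control 2 (30.7 CPM) stand apart at the upper right, and the other 22 libraries have at most 2.71 CPM of Rpl3l.

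Rpl39l, a paralog of Rpl39 best known from the testis, was lower with lymph node transcripts, at -0.88 (SE 0.31, edgeR adjusted p = 0.0233). It had 0.56, 3.75 and 10.9 CPM with and 2.99, 6.91 and 12.0 CPM without, so the ranges overlapped, and Rpl39 was higher, at 0.64 (SE 0.08). Rps27l was lower as well, at -0.25 (SE 0.10, edgeR adjusted p = 0.0417), with 47.4, 77.4 and 91.9 CPM with and 74.6, 84 and 106 CPM without. Rps27l and Rps27 therefore differed in opposite directions between the same libraries, and Rps27l shared 13.3% of its 3′ words with other genes, against 58.5% for Rps27. The call of Rps27l was lost with limma voom (adjusted p = 0.0517) and without any 1 of 7 libraries (elemental control 4 or 5, casein control 2, 3, 4, 5 or 6; edgeR adjusted p from 0.0606 to 0.192). The call of Rpl39l was lost without elemental control 5 or casein control 5 (edgeR adjusted p = 0.065 and 0.0784).

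The 5 members that did not pass either way were Rps19bp1 at -0.14 (SE 0.09), Rpl7l1 at 0.09 (SE 0.09), Rpl36al at 0.21 (SE 0.13), Rpl24 at 0.22 (SE 0.15) and Rpl15 at 0.26 (SE 0.14). Without casein control 2, Rpl15 and Rpl36al passed at 0.33 and 0.27 (edgeR adjusted p = 0.0176 and 0.0388). Their partners by name did pass, with Rps19 at 0.74, Rpl7 at 0.66 and Rpl36a at 0.83. Rpl22 and its paralog Rpl22l1 both passed, at 0.59 and 0.30, with 276, 369 and 422 CPM of Rpl22 with lymph node transcripts and 206, 256 and 287 CPM without. Rpl10 was at 0.44 and Rps4x at 0.78. The pairs were compared by their own values, and the differences between partners were not tested.

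Members varied unequally across the 24 libraries. The SD of log2 CPM had a median of 0.39 over the members. It was largest for Rpl3l (1.99), Rpl39l (0.89), Rps27rt (0.72), Rps6 (0.66) and Rps27 (0.66), and smallest for Rpl7l1 (0.18). Rps6 had between 47 and 415 counts in a library.

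Start tracts were set beside these differences. The 26 members with a tract within 3 bases of the annotated start had a median log2 difference of 0.74 between libraries with and without lymph node transcripts, and the 39 matched members without one had 0.68, with no test of the gap. Rps27, Rps24, Rpl12 and Rps15a have a tract that begins within 3 bases of the start printed above. Rps16, Rps7, Rps3 and Rps13, with differences of 1.15, 1.02, 0.97 and 0.96, have none. Rps27l, which was lower with lymph node transcripts, has a tract within 3 bases of its annotated start, and so has Rpl15, which did not pass either way. Rpl39l, Rpl3l and Rps19bp1 have none that begins within 3 bases of the annotated start.

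Other genes of the pathway were set beside the members. Of 17 translation factors and other TOP mRNAs, 0 were called for any diet comparison, and 14 were higher and 0 lower with lymph node transcripts (median 0.31). Of 39 genes of rRNA synthesis and ribosome assembly, 0 were called for any diet comparison, and 15 were higher and 2 lower with lymph node transcripts (median 0.25). Of 26 genes of mTORC1 signalling and TOP translation control, 4 were higher and 6 lower with lymph node transcripts. In the diet comparisons 1 of them was called, Deptor, an inhibitor that binds mTOR, which fell in casein control against elemental control at a log2 fold change of -0.82 (SE 0.19, edgeR adjusted p = 0.0461). In that comparison 0.659% of all genes tested were called, and in the other diet comparisons 0% to 3.82%. Of 12 p53 target genes, which respond when ribosome assembly is disturbed, 0 were called for any diet comparison, and 3 were higher and 5 lower with lymph node transcripts. The mTORC1 and p53 lists have the same lowest log2 difference by lymph node transcripts, -0.813535, so the lists overlap and their counts are not independent. Over all genes tested, 22.9% were higher and 22.9% lower with lymph node transcripts. The mTORC1 counts on both sides and the p53 count on the higher side were near or below these shares. At an unadjusted p under 0.05, the highest counts in a diet comparison were 5 of the 26 mTORC1 genes for oxidized casein MR against casein control (16.1% of all genes), 4 of the 39 assembly genes for oxidized casein MR against elemental MR (6.98% of all genes), and 2 of the 12 p53 targets and 1 of the 17 translation factors and TOP mRNAs for casein control against elemental control (12.6% of all genes).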

How the data were processed

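The authors deposited raw counts per gene for 24 QuantSeq libraries (50 bp reads), and a normalized signal table whose values equal those counts divided by a single size factor per library (largest relative difference 5.3e-15). Per the submitters' processing notes, the builds were GRCm38 and mm10 and the tools included DESeq2 1.18.1 in R 3.4.3. The sources used here do not give the aligner, counter or strandedness, so overlapping and antisense genes cannot be told apart. The table's smallest gene total is 72 counts, so rarer genes are not listed.

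The test on raw counts was edgeR 4.0.16 in R 4.3.3, with filterByExpr by diet (15176 genes kept), TMM, 1 mean per diet over all 24 libraries, robust glmQLFit and 2-sided glmQLFTest, Benjamini-Hochberg over all tested genes, threshold 0.05. An SE is the log2 fold change divided by the root of F. A library has lymph node transcripts where the mean log2 CPM (prior count 2) of its 12 B cell markers exceeds 4. The pipeline was tested on simulated data. Alternatives included DESeq2 1.42.0, limma voom 3.58.1, other scalings and filters, lymph node terms and leaving out each library. Missing names came from GENCODE M21. Mouse numbers in the labels separate the samples and pair none, and no 2 libraries of a group agreed within counting noise (smallest chi-square per degree of freedom 5.84). Reads carry no molecular identifiers.

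The members and gene lists were chosen with earlier results of these data known. Named members are the 3 with the smallest p in each direction of a comparison where fewer than 3 were called, the 5 highest and 5 lowest by mean CPM, the paralogs and their partners, the stalk proteins and Rpsa, and the 5 with the largest SD of log2 CPM; others are named from the comparison of libraries with and without lymph node transcripts. Some genes are not reported here by name.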

Additional observations from a re-analysis of the deposited data

Results flagged for a closer look

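Of 132 groups of 6 values examined (32 named members and the ribosomal protein share of counts, in each of 4 diets), 10 held a sample far from its neighbours, and chance flags about 1 in 20 groups. In 8 of the 10 the sample was elemental MR 2, the lowest of its group. Its values, each followed by the nearest other mouse, were 156 CPM of Rpl21 (244), 154 CPM of Rpl3 (257), 226 CPM of Rpl37a (375), 630 CPM of Rplp2 (924), 699 CPM of Rps14 (1250), 146 CPM of Rps2 (199), 182 CPM of Rps27 (401) and 44.5 CPM of Rps4x (77.0). This library was also the only elemental MR library without lymph node transcripts, with B cell markers at 24 CPM and muscle markers at 5111 CPM. These flags share 1 library, and the part of those tissues in them was not tested. The other flags were Rpl36al at 18.7 CPM in casein control 2 (nearest 32.1) and Rps19bp1 at 18.9 CPM in oxidized casein MR 3 (nearest 26.3).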

How the results depend on the processing

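The count of called members stayed at 0 in each diet comparison under every alternative run, with 2 exceptions, both Rps27l. Without casein control replicate 5, which had its highest level (106 CPM), Rps27l was called higher in oxidized casein MR than in casein control (log2 fold change 0.405, edgeR adjusted p = 0.0445), so that leaving out each library gave 0 to 1 calls there (5.41% of all genes in that fit), and 0 to 0 in the other diet comparisons. Within the libraries with lymph node transcripts, 1 member was called for casein control against elemental control, Rps27l at -0.527 (edgeR adjusted p = 0.0445; 1.13% of all genes). The count for the lymph node comparison stayed between 78 and 81. The median of the members for elemental MR ran from -0.0491 (without elemental control 2) to 0.146 (without elemental MR 2), and for the controls from -0.0125 (without casein control 6) to 0.196.

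Of 1103 refitted values of 30 member and comparison pairs, 23 changed sign, none of them called in either fit. Leaving out 1 library at a time, the log2 fold changes ran, for elemental MR, from -3.92 (without elemental MR 2) to 1.94 (without elemental control 2) for Rpl3l, from -0.159 to 0.0305 for Rpl10 and from -0.133 to 0.0422 for Rpl39. For the difference, those of Rpl3l ran from -1.08 to 4.77, without the same libraries. For the MR diets they ran from -0.113 to 0.455 for Rpl39l, from -0.0345 to 0.129 for Rpl29 and from -0.144 to 0.2 for Rps6. Within libraries without lymph node transcripts, Rpl3l was 0.209 for elemental MR, Rps2 was 0.0801 for the MR diets, and Rps27l was -0.0938 for oxidized casein MR against casein control, -0.129 for the difference and 0.0923 for the controls. Within those with them, Rps4x was 0.017 for the difference. Rpl39l for the MR diets was -0.368 with the lymph node term, -0.248 with the B cell score and -0.631 within libraries with lymph node transcripts, and Rps6 was -0.0208 without the 2 muscle-rich libraries. The causes were not tested. The fit on 2 groups alone does not apply to the difference. No paired analysis was possible because the labels' mouse numbers occur once each and link no mice across diets. With 6 mice a diet, the SE of a single member had a median of 0.22. The comparison by lymph node transcripts and the exclusion of muscle-rich libraries were chosen after seeing the data and use samples grouped from the data.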
